A study of Rattus norvegicus with 9 samples.

Results

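The genes described here are activity-dependent immediate early genes, which a neuron transcribes within minutes of synaptic input without first making new protein. The list held 10 genes: Arc, Npas4, Fos, Fosb, Junb, Egr1, Egr2, Egr3, Egr4 and Nr4a1. A gene was taken as measured if a non-control probe of the array carried exactly its symbol, and the probe with the highest mean log2 signal over all arrays stood for the gene. This found 9 of the 10 genes with 11 probes, out of 19293 gene symbols and 30367 probes on the array, and all 9 passed the filter on dim probes. Fosb had no probe under that symbol. The list was drawn up because Npas4 and Arc were among the genes with the lowest I/R to Sham ratio, so the I/R versus Sham values of all 9 genes are given as a description and carry no test.

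The arrays were single-color Agilent SurePrint G3 Rat arrays, 3 per group, of brain tissue (infarcted hemisphere, per the methods) taken from male Sprague-Dawley rats at day 14. The Sham rats were operated on without blocking the artery and received solvent by the tail vein. In the I/R (ischemia and reperfusion) rats the middle cerebral artery was closed with a filament for 2 h and then reopened, and the filament model injures the territory of that artery, which includes striatum and lateral cortex. The DHI rats had the same 2 h of occlusion and then daily tail vein injections of Danhong injection, an extract of Salvia miltiorrhiza and Carthamus tinctorius. The methods state the dose in different units, so none is given here. The paper calls the 3 arrays of a group biological replicates, and values are given by array, with the replicate numbers of the labels.

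In neurons, calcium entering through NMDA receptors and voltage-gated channels activates kinases that phosphorylate CREB and the partners of serum response factor, and both factors sit at the promoters of immediate early genes before the stimulus. Fos and Junb proteins pair to form AP-1, the Egr proteins are zinc finger factors, Nr4a1 is an orphan nuclear receptor, Npas4 is a bHLH-PAS factor found almost only in neurons, and Arc is a synaptic protein that promotes removal of AMPA receptors. Fos, Junb, Egr1 and Nr4a1 are also induced in many other cell types by growth factors and stress.

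RefSeq promoter windows (rat GRCr8, 250 bases before the annotated start) were found for 7 of the 10 genes, Egr1, Egr2, Egr4, Fosb, Junb, Npas4 and Nr4a1. They are shown for Egr2, Egr4 and Nr4a1 as examples that hold the short elements named above, and for Npas4 as a window that holds none of them. Capitals mark the letters TGACG on either strand, the core of the cAMP response element that CREB binds, and the CArG box of serum response factor. The windows are chr20:21054442-21054691, minus strand (Egr2), chr4:119607818-119608067, minus strand (Egr4), chr7:134259888-134260137, plus strand (Nr4a1) and chr1:211716103-211716352, minus strand (Npas4).
Egr2 promoter: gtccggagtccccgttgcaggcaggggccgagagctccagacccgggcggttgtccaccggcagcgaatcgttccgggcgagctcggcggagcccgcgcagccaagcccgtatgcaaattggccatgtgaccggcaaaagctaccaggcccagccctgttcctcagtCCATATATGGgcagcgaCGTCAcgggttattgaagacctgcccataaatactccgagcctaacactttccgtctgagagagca
Egr4 promoter: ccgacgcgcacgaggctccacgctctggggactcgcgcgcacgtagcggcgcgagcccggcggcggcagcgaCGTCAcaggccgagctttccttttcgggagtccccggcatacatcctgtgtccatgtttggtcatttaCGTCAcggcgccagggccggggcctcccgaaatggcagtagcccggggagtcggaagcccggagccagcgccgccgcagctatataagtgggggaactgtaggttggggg
Nr4a1 promoter: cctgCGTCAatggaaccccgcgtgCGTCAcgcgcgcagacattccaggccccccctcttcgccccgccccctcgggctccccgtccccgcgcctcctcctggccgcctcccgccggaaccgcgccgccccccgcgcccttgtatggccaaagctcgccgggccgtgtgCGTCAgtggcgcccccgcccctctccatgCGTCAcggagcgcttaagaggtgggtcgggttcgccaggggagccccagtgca
Npas4 promoter: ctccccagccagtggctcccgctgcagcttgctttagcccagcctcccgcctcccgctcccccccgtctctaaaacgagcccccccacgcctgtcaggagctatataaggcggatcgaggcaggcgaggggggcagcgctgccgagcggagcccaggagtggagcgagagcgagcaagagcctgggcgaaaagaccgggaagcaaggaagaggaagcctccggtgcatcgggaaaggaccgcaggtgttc

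The TGACG core was present in 5 of the 7 windows (Egr1, Egr2, Egr4, Junb and Nr4a1), and in 18.2% of the 33469 rat promoter windows cut to the same length. Nr4a1 had 4 copies, Egr1 and Egr4 had 2 each. The full element TGACGTCA, which contains the core, was in 0 of the 7 and in 1.59% of all. A CArG box was found in 2 of the 7, Egr1 and Egr2, against 1.5% of all. In both genes a CArG box began 83 bases and a TGACG core 66 bases before the start. The AP-1 letters TGANTCA were in 0 of the 7 (6.34% of all), and the EGR letters GCGNGGGCG were in 1 of the 7, Nr4a1 (4.29% of all). The Npas4 and Fosb windows held none of the letters searched. These are matches of letters on both strands in short windows, not measured sites.

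A log2 signal below is the log2 of a probe's background-corrected intensity minus the 75th percentile of its array, so 0 is the 75th percentile and a step of 1 is a 2-fold change. Probes differ in brightness, so a log2 signal is compared only between arrays for the same probe. On an array, 75.2% to 78.9% of probes stood well above background, and 0 probes were saturated. A gene is called changed at the study's thresholds, an unadjusted p under 0.05 (limma, all 9 arrays in one model) with a fold change over 1.5, and the Benjamini-Hochberg adjusted p over all 23747 probes tested is given beside it. The p-values rest on the spread between arrays within groups, with 3 arrays per group. That spread is pooled over the 3 groups, also those not compared, and drawn toward a common value over all probes. The Sham and I/R arrays lay on one slide and the DHI arrays on another, so the slide and DHI cannot be told apart in any comparison with DHI.

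Markers of brain tissue were present, with all 14 neuron, 7 astrocyte and 6 oligodendrocyte markers passing the filter on dim probes. Neuron markers were lower in I/R than in Sham in 14 of 14 (median log2 difference -2.18), and markers of microglia and macrophages were higher in 8 of 9 (median 3.60). In these whole-tissue samples, fewer cells of a type and less RNA per cell cannot be told apart.

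Npas4 was well above background in every Sham array and in no I/R array. Its probe is 60 bases long and lies at chr1:207598453-207598512 (minus strand) of rn4, the build of the files, which name no exon or UTR for it.
Npas4 probe: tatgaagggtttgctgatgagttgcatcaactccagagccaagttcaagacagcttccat
The log2 signal of Npas4 was -5.00, -2.87 and -2.50 in the Sham arrays, -9.76, -9.18 and -9.17 in the I/R arrays, and -8.72, -5.99 and -5.80 in the DHI arrays. All 3 Sham arrays lay above all 3 DHI arrays, and DHI arrays 2 and 3 above all 3 I/R arrays. Signal well above background was seen on 3 of 3 arrays in Sham, 0 of 3 in I/R and 2 of 3 in DHI (not in DHI array 1), so the I/R level is only a bound, and Npas4 was at least 34.1-fold lower in I/R than in Sham. With normexp background correction the I/R versus Sham difference was -2.38 in place of -5.91 on the log2 scale.

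The Arc probe had an intensity, before scaling, of 22490, 71370 and 50990 in the Sham arrays, 368.1, 855.6 and 4259 in the I/R arrays, and 1572, 23410 and 6322 in the DHI arrays. On the scaled log2 scale these were 3.13, 4.70 and 4.28 in Sham, -2.84, -1.84 and 0.30 in I/R, and -0.83, 3.69 and 1.58 in DHI. Sham and I/R were fully separated, and the DHI arrays reached from the I/R range into the Sham range. The Arc mean was 4.04 ± 0.81 (SD, n = 3) in Sham and -1.46 ± 1.60 (SD, n = 3) in I/R, a 45.1-fold difference. The probe lies at chr7:112772025-112772084 (rn4).

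Of the Egr factors, Egr4 had the largest I/R versus Sham difference (chr4:119765289-119765348, rn4). Its log2 signal was 2.01, 2.92 and 2.92 in Sham, -3.47, -2.09 and -0.74 in I/R, and -1.14, 2.25 and 1.62 in DHI. The I/R mean was 26.3-fold below the Sham mean, and DHI arrays 2 and 3 lay close to Sham while DHI array 1 lay within the I/R range. Egr1, the member of this family with the broadest expression, read 2.20, 2.95 and 2.71 in Sham, -0.44, -0.40 and -0.28 in I/R, and -0.07, 2.68 and 1.46 in DHI. The 3 I/R arrays were nearly equal (SD 0.08), 7.96-fold below Sham on average, and every DHI array was above them. The other Egr1 probe gave a larger I/R versus Sham difference, -3.40 against -2.99 on the log2 scale.

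Egr2, known also for its part in myelination by Schwann cells, read -1.65, -0.04 and -0.47 in Sham, -3.98, -3.48 and -3.43 in I/R, and -3.12, -1.25 and -2.91 in DHI (chr20:21883940-21883999, rn4). Each I/R array was below each Sham and each DHI array, and the I/R mean was 7.51-fold below the Sham mean. Egr3 was dim and its probes disagreed. Both lie in one gene, the brighter at chr15:50479803-50479862 and the dimmer at chr15:50479417-50479476 (rn4, plus strand), and they are shown because the Egr3 result depends on which is read.
Egr3 brighter probe: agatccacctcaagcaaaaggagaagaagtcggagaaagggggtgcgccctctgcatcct
Egr3 dimmer probe: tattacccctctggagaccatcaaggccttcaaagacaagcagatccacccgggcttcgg
The brighter probe read -6.10, -5.88 and -6.03 in Sham, -6.74, -7.18 and -6.91 in I/R, and -7.61, -5.31 and -5.93 in DHI, with the I/R arrays all below Sham and the DHI arrays on both sides of them. The I/R versus Sham difference was -0.94 on the log2 scale for the brighter probe. The dimmer probe stood well above background on 3 of 3 arrays in Sham, 0 of 3 in I/R and 2 of 3 in DHI, and it was at least 2.17-fold lower in I/R than in Sham.

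Nr4a1 (chr7:140020442-140020501, rn4) read 2.49, 4.11 and 3.57 in Sham, -0.46, -1.09 and 0.21 in I/R, and -0.44, 3.13 and 1.23 in DHI. The I/R mean was 14.3-fold below the Sham mean with no overlap, and DHI array 1 read like the I/R arrays while DHI array 2 read like the Sham arrays.

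The AP-1 subunits had smaller differences. Fos (chr6:109561941-109562000, rn4) read -1.53, 0.45 and 0.03 in Sham, -2.48, -2.32 and -2.56 in I/R, and -2.88, -1.67 and -3.51 in DHI. The I/R arrays were tightly grouped (SD 0.12) and 4.29-fold below Sham on average, and 2 of the 3 DHI arrays were lower than every I/R array. Junb (chr19:24833225-24833284, rn4) read 2.68, 4.28 and 3.89 in Sham, 2.62, 2.46 and 2.16 in I/R, and 1.89, 2.92 and 1.69 in DHI. Sham array 1 was barely above the highest I/R array for Junb, and DHI arrays 1 and 3 were again the lowest of all.

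**Figure D1:**
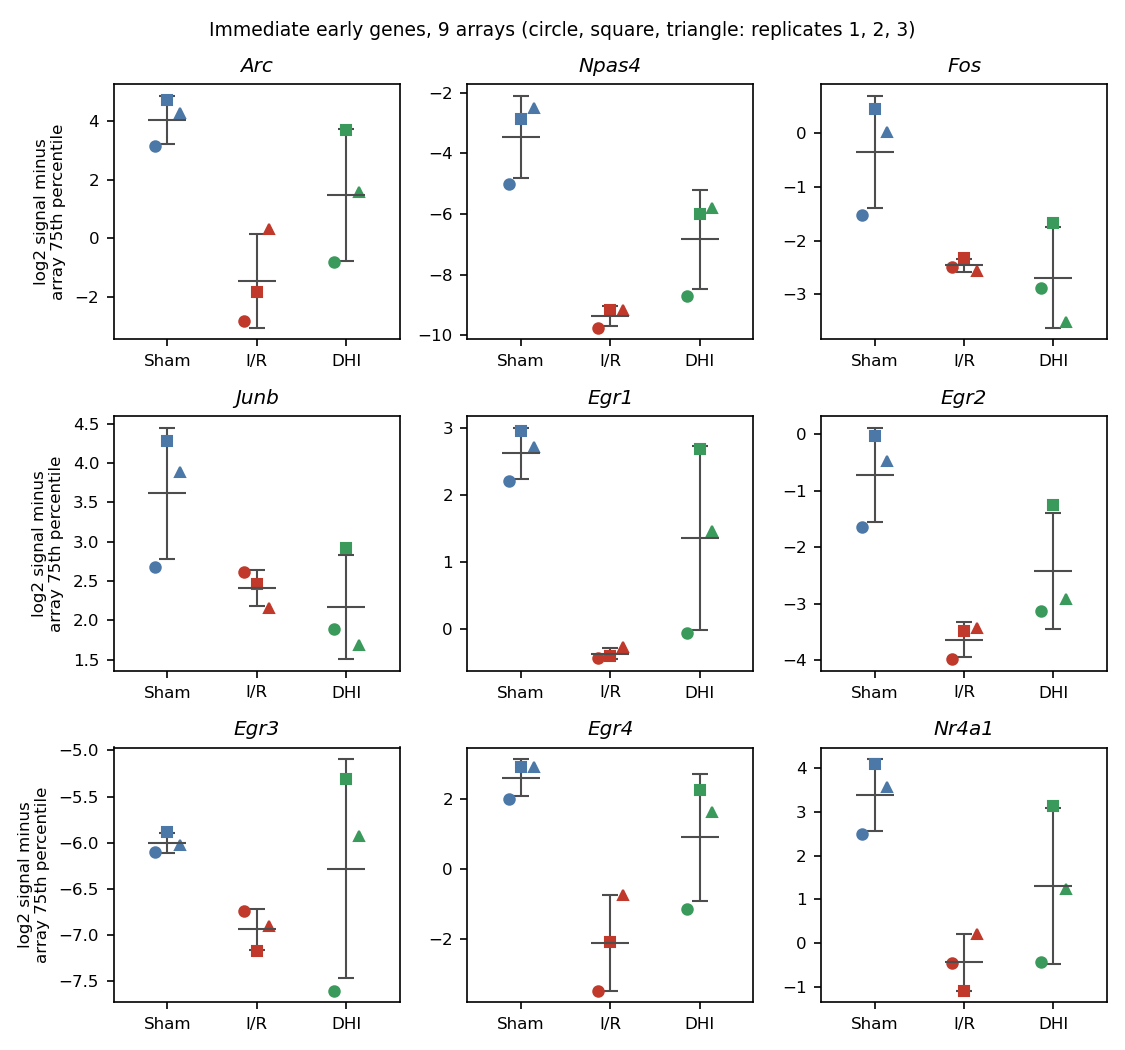
Log2 signal minus the array's 75th percentile (y axis, a separate range for each gene) of 9 immediate early genes in the Sham, I/R and DHI arrays. Each point is an array, with the shape giving the replicate number, and the bars are the mean ± SD (n = 3). The I/R points lie below the Sham points in all 9 panels, and the DHI points are widely spread. The Npas4 points of the 3 I/R arrays and of DHI 1 were not well above background.

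In I/R versus Sham, the 3 I/R arrays lay below the 3 Sham arrays for 9 of 9 genes, where 35.8% of all probes tested did so, and 8 of 9 were called lower, where 22.3% of all probes were. The members were chosen on this comparison, so nothing is read from these counts. The median log2 difference of the 9 genes was -2.99, and that of all probes was -0.10. In order, the I/R versus Sham differences on the log2 scale were -5.50 for Arc, -4.72 for Egr4, -3.84 for Nr4a1, -2.99 for Egr1, -2.91 for Egr2, -2.10 for Fos, -1.20 for Junb and -0.94 for Egr3. Npas4, at least 34.1-fold lower, has no place in this order, since its I/R level was not measured. Standard errors were 0.46 to 1.18, so neighbors in this order, such as Egr1 and Egr2, were closer to each other than their standard errors.

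DHI versus I/R shares the I/R arrays with the comparison on which the genes were chosen. Here 4 of the 9 genes, Arc, Npas4, Egr1 and Egr4, were called higher in DHI and 0 were called lower, while 11.5% of all probes were called higher and 10.5% lower. None passed an adjusted p under 0.05, which 1 probe of the whole array did (0.00421% of those tested). Egr4 rose by 3.01 ± 0.96 on the log2 scale (fold change ± SE, 8.06-fold, limma, adjusted p = 0.196) and Arc by 2.94 ± 1.18 (7.67-fold, limma, adjusted p = 0.196). Egr1 rose by 1.73 ± 0.60 (3.31-fold, limma, adjusted p = 0.196), and its other probe gave 1.70. Npas4 was 3.28-fold higher in DHI with the I/R level set at its bound (limma, adjusted p = 0.196). DHI array 1 was not well above background either, so this value is not a minimum. With normexp background correction the Npas4 difference was 0.88 on the log2 scale and not called.

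The other 5 genes did not pass. The difference in DHI versus I/R was 1.75 ± 0.86 for Nr4a1, 1.20 ± 0.56 for Egr2 and 0.66 ± 0.51 for Egr3 on the log2 scale (SE). The dimmer Egr3 probe was called, 2.17-fold higher in DHI with the I/R level set at its bound (limma, adjusted p = 0.196). It was well above background in only 2 of the 3 DHI arrays, so this value is not a minimum. Fos and Junb were the exceptions in direction, at -0.24 ± 0.59 and -0.25 ± 0.46, and without DHI 3 the Fos value was 0.18. The median over the 9 genes was 1.73 (1.71 with Npas4 at its bound), against 0.10 over all probes, and it was 0.84 without DHI array 2 and 1.07 with normexp background correction. All 3 DHI arrays lay above all 3 I/R arrays for 3 genes, Egr1, Egr2 and Npas4 (with DHI 1 and I/R not well above background), where 5.52% of all probes did so.

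These calls rested on few arrays. Without DHI array 1 there were 7 called genes (Egr2, Egr3 and Nr4a1 joined, at 1.55, 1.32 and 2.63). There were 2 without DHI array 2, and 1 without DHI array 3 or I/R array 1. Calls over all probes moved as well, from 5211 to 10737 without DHI array 1 and to 939 without DHI array 2. They were 1127 without DHI array 3 and 1381 without I/R array 1. The Arc call needed Sham 3 (2.94 without it), DHI 3 (2.89), I/R 2 (2.75), I/R 1 (2.25) and DHI 2 (1.84), that of Npas4 needed I/R 1 (2.34), DHI 2 (2.11) and DHI 3 (2.02), that of Egr4 needed I/R 1 (2.32), and that of Egr1 needed DHI 3 (1.68).

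**Figure D2:**
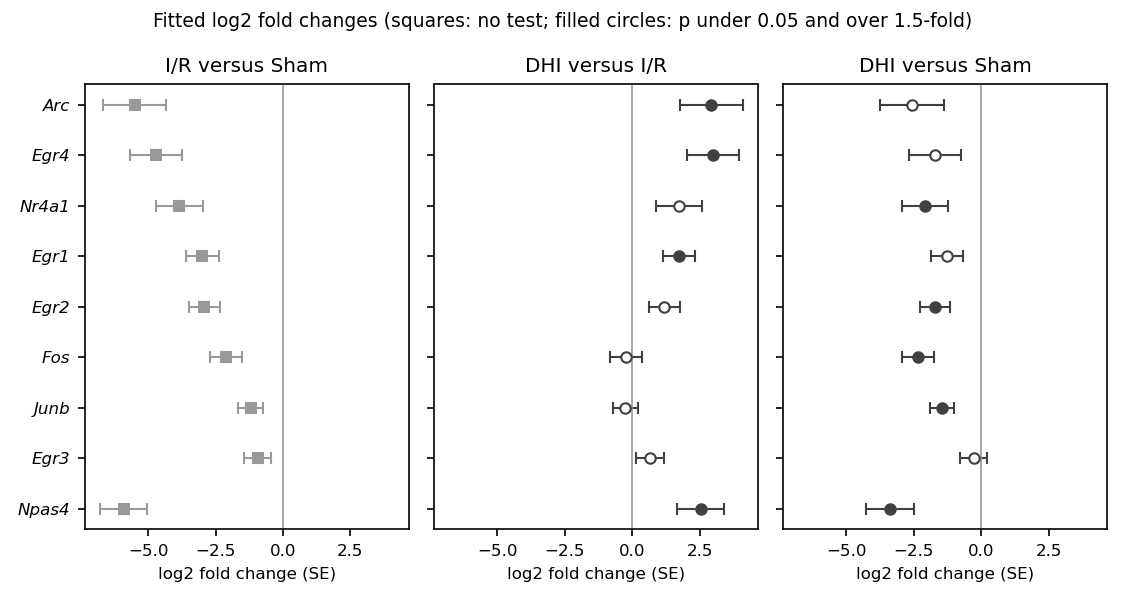
Fitted log2 fold changes (x axis) with standard errors of 9 immediate early genes in the comparisons of the 3 groups. Squares (I/R versus Sham) are a description with no test, and circles are filled where the unadjusted p was under 0.05 and the fold change over 1.5. In DHI versus I/R the values run from -0.25 for Junb to 3.01 for Egr4, and in DHI versus Sham all 9 are below 0. Npas4 is drawn last, at its fitted values, because its I/R level was not well above background.

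The DHI arrays fell in a similar order for most genes. DHI array 1 was the lowest DHI array for 7 of the 9 genes and DHI array 2 the highest for 8 of the 9. DHI arrays 2 and 3 both lay above all I/R arrays for 7 of the 9 genes, all but Fos and Junb, and DHI array 1 lay within or below the I/R range for 6 of the 9. These orders were not counted over all probes. The neuron markers also had DHI array 1 lowest and DHI array 2 highest, at -1.82 and 0.13 from the Sham mean on the log2 scale. With the I/R mean set to 0% and the Sham mean to 100% on the log2 scale, Arc stood at 11.6%, 93.7% and 55.3% in DHI arrays 1, 2 and 3, and Egr4 at 20.4%, 92.2% and 78.9%. Npas4 has no such position, since its I/R mean was not well above background. Fos stood at -20.5%, 37.2% and -50.5%, and Junb at -43.5%, 41.7% and -60.5%, so that for these genes DHI array 3 was farther from Sham than the I/R mean was.

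**Figure D3:**
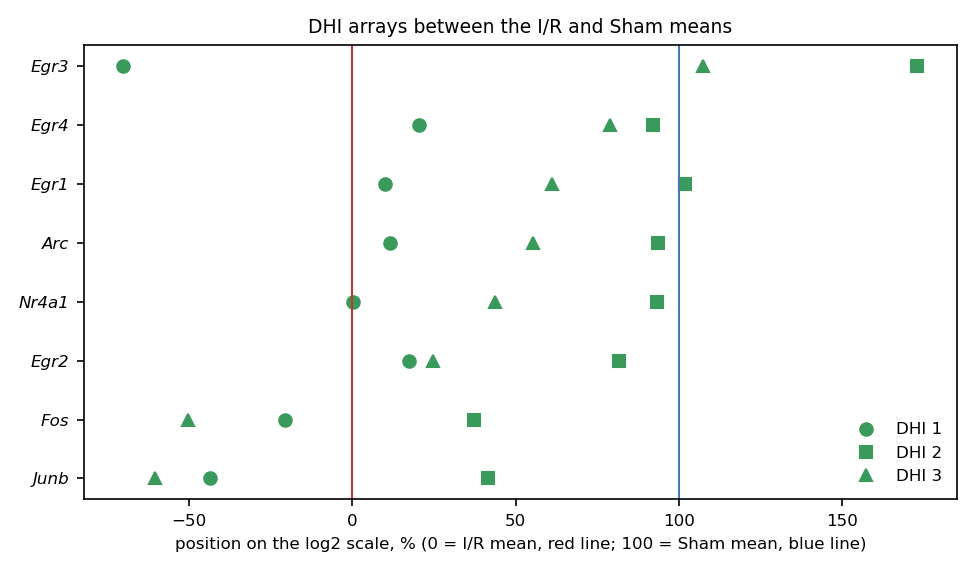
Position of each DHI array between the I/R mean (0%, red line) and the Sham mean (100%, blue line) on the log2 scale (x axis) for 8 immediate early genes, without Npas4. Circles, squares and triangles are DHI arrays 1, 2 and 3. DHI 3 is at 55.3% for Arc and at -50.5% for Fos.

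The replicate SD of the 9 genes was larger than that of all probes in Sham and DHI. In Sham the median SD on the log2 scale was 0.83 over the 9 genes and 0.15 over all probes, with 8 of 9 genes above the median of all probes. In DHI it was 1.38 against 0.40 (9 of 9 above), and in I/R 0.30 against 0.32 (4 of 9 above). The DHI spread was not particular to these genes. The mean of a gene list had an SD over the DHI arrays of 1.30 for the 9 genes and 1.04 for the neuron markers. It was 0.97 for activity-regulated effector genes and 1.76 for microglia and macrophage markers. Within Sham, array 1 was the lowest for 9 of 9 genes, an order not counted over all probes. Sham array 1 also stood apart in markers of striatal neurons, whose mean log2 difference from the Sham mean was 1.87 in array 1, -0.99 in array 2 and -0.88 in array 3, and in red blood cell markers, at -1.54, 1.24 and 0.30. Cortical excitatory neuron markers were at -0.38, 0.24 and 0.14, and neuron markers in all at 0.00, 0.04 and -0.04. The part of these differences between samples in the gene values was not tested.

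DHI versus Sham shares the Sham arrays with the comparison on which the genes were chosen. All 9 genes were lower in DHI and 5 were called lower, Npas4, Fos, Junb, Egr2 and Nr4a1, where 1.06% of all probes were called lower. With the adjusted p, 0 of the 9 and 0 of all probes passed (0%), and with the unadjusted p and no limit on the fold change 5.45% of all probes passed. Npas4, well above background in 2 of the 3 DHI arrays, fell, at -3.38 ± 0.88 on the log2 scale (SE, 10.4-fold, limma, adjusted p = 0.709), and with normexp background correction its value was -1.50. Fos fell, at -2.34 ± 0.59 (5.06-fold, limma, adjusted p = 0.709), and Npas4 and Fos were the 2 genes whose Sham and DHI arrays did not overlap, where 8.34% of all probes lay lower without overlap. Egr2 fell, at -1.71 ± 0.56, Junb at -1.45 ± 0.46 and Nr4a1 at -2.08 ± 0.86, all with overlap between arrays.

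Arc, Egr4 and Egr1 did not pass in DHI versus Sham, at -2.56 ± 1.18, -1.71 ± 0.96 and -1.26 ± 0.60 on the log2 scale (SE). The other Egr1 probe was called, at -1.70. Egr3 was at -0.28 ± 0.51, and its sign turned with normexp background correction (0.18), with array weights (0.08) and without DHI 1 (0.38), so its direction is not settled. Over the 9 genes the median was -1.71, against 0.02 over all probes. The number called was 8 without DHI array 2, 3 without DHI array 1 or DHI array 3, and 2 without Sham array 2. Over all probes it went from 849 to 2519 without DHI array 2 and to 344 without Sham array 2. It was 832 without DHI array 1 and 816 without DHI array 3. The Nr4a1 call was lost without any one of 7 arrays, with values from -2.08 to -1.21, the Egr2 call without Sham 2 (-1.37), DHI 1 (-1.36) or DHI 3 (-1.47), and the Junb call without Sham 2 (-1.12).

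Over the 9 arrays the genes were compared by Pearson's r, over arrays that share their groups. The highest r was 0.98, for Fos and Junb, Arc and Egr4, and Egr1 and Nr4a1. Arc, Npas4, Egr1, Egr2, Egr4 and Nr4a1 all had r of 0.9 to 0.98 with each other, so pairs among them do not stand apart. With Arc and Egr4 the AP-1 subunits had a lower r, at 0.54 for Junb and Egr4, 0.61 for Fos and Egr4, and 0.71 for Fos and Arc. Fos and Egr2 were at 0.88. Outside the list, the tested genes with the highest r to Npas4 (4 of its 9 signals not well above background) were Clasp2 (0.986), Kctd3 (0.982) and Pdik1l (0.982), and those with the highest r to Arc were Per3 (0.997), Lnp (0.994) and Glrb (0.994). Clasp2 encodes a microtubule plus-end protein, Per3 a period protein of the circadian clock, and Glrb the beta subunit of the glycine receptor.

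Neuron markers and the 9 genes were both low in I/R and ran in the same order over the I/R arrays, with the markers spread over a wider range. The mean log2 difference of the 14 neuron markers from the Sham mean was -3.43, -2.47 and -0.98 in I/R arrays 1, 2 and 3, while that of the 9 genes was -3.70, -3.43 and -2.91. In DHI arrays 1, 2 and 3 the neuron markers were at -1.82, 0.13 and -0.20 and the 9 genes at -3.19, -0.59 and -1.81. I/R array 3 kept the most neuron marker signal of the I/R arrays, and Fos, Egr1 and Egr2 in this array were as low as, or little above, the other I/R arrays. Arc and Egr4 were highest in I/R array 3, as the neuron markers were. The summed intensity of the neuron markers, scaled to the array, ran from 121 to 127 in Sham, 13.5 to 64.4 in I/R and 41.3 to 129 in DHI, and each of the 14 was well above background on 3 of 3 arrays of every group.

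With the neuron marker mean of each array subtracted, the I/R versus Sham difference remained below 0 for 6 of the 9 genes, with a median of -0.70. These counts include Npas4, for which no value is given because its I/R signal was not well above background. The difference was -3.20 for Arc and -2.42 for Egr4, and for both I/R and Sham stayed fully separated. Nr4a1 was at -1.55, Egr1 at -0.70 and Egr2 at -0.62. Fos, Junb and Egr3 were at 0.19, 1.09 and 1.35, on the other side of 0. In DHI versus I/R the subtracted values were 1.35 for Egr4 and 1.28 for Arc, 0.07 for Egr1 and 0.09 for Nr4a1, and -1.90 for Fos and -1.91 for Junb. The subtraction treats every neuron marker as equally neuronal and the 9 genes as expressed in neurons only, and is a description. The list was chosen on I/R versus Sham, so nothing is read from what remains after the subtraction. How many of all probes stay separated after the same subtraction was not counted. Fos, Junb, Egr1 and Nr4a1 are induced in other cell types too, and Egr3 was dim. How far the lower neuron marker signal enters the values of the 9 genes was not tested.

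**Figure D4:**
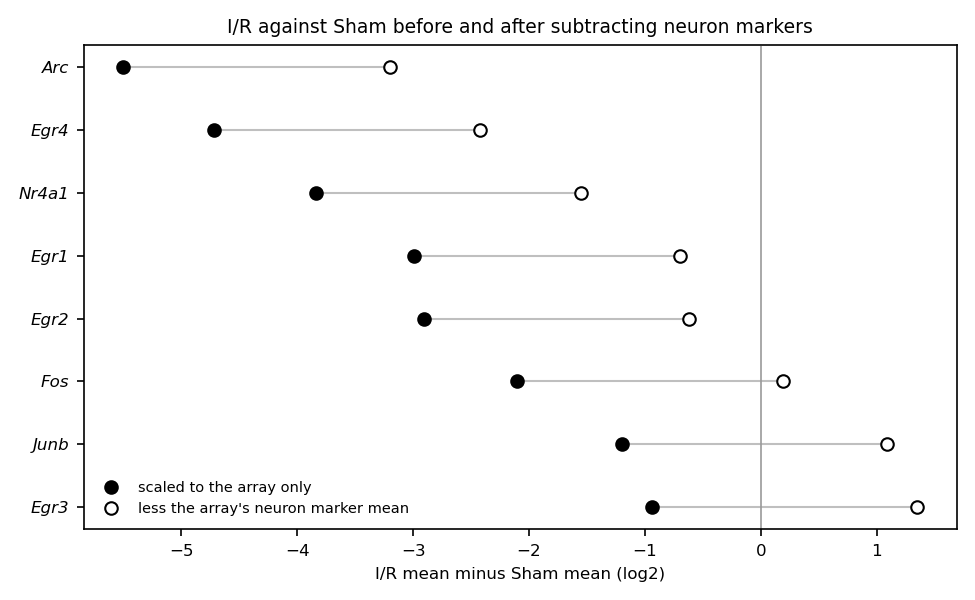
I/R mean minus Sham mean on the log2 scale (x axis) of 8 immediate early genes, without Npas4, as scaled to the array (filled) and after the mean of 14 neuron markers was subtracted on each array (open). Arc moves from -5.50 to -3.20, and Fos, Junb and Egr3 pass from below to above 0. The genes were chosen on this comparison, so the values are a description.

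Other genes of the same response were counted in lists. Effector genes, many of whose products act at synapses or are secreted, were the most uniform of these lists in direction. In I/R versus Sham, 15 of 20 were called lower and 0 higher (median -2.32), against 22.3% and 20.8% of all probes. Bdnf, a neurotrophin, fell, at -3.51 ± 0.85 on the log2 scale (SE, limma, adjusted p = 0.0396), Nrn1, a neuritin that promotes neurite growth, at -3.36 ± 0.89, and Rgs4, a regulator of G protein signaling, at -3.28 ± 0.77. Bdnf was well above background on only 2 of the 3 I/R arrays, so the size of its difference from I/R is uncertain. Cartpt, a neuropeptide precursor, fell, at -3.16 ± 1.05, a call lost without I/R 1 (-2.61), I/R 3 (-2.72) or Sham 3 (-2.87). Between DHI and I/R, 12 of the 20 were called higher and 0 lower (median 1.61), against 11.5% and 10.5% of all probes, with Bdnf at 2.63 ± 0.85, Nrn1 at 2.50 ± 0.89 and Vgf, a secreted neuropeptide precursor, at 2.11 ± 0.73 (SE, limma, adjusted p = 0.196 for each).

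Other immediate early transcription factors were called in both directions. In I/R versus Sham, 6 of 21 were called lower and 2 higher (median -0.44), against 22.3% and 20.8% of all probes. The Nr4a1 relatives Nr4a3 and Nr4a2 fell, at -2.36 ± 0.78 and -2.32 ± 0.66, and the antiproliferative factor Btg2 at -2.29 ± 0.49 (SE). Fosl1, an AP-1 subunit, rose by 2.22 ± 0.50. The Nr4a3 call was lost without I/R 1 (-1.80) or I/R 2 (-2.05). Between DHI and I/R, 1 of 21 was called higher (11.5% of all probes), Nr4a3 at 2.00 ± 0.78, and 3 lower (10.5% of all probes), with Fosl1 at -1.77 ± 0.50 and the proto-oncogene Myc at -1.33 ± 0.50. With normexp the Fosl1 value in DHI versus I/R was -0.37 and not called.

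Feedback regulators, which end the signal or destabilize the transcripts, also had calls in both directions, with 6 of 16 called lower and 2 higher in I/R versus Sham (median -0.50), against 22.3% and 20.8% of all probes. The MAP kinase phosphatases Dusp1 and Dusp14 fell, at -2.51 ± 0.68 and -1.94 ± 0.43, while Errfi1, an inhibitor of EGF receptor signaling, rose by 1.67 ± 0.39 and Ier3 by 1.38 ± 0.44 (SE). Against I/R, DHI had 1 called higher (Dusp14, 1.18 ± 0.43) and 2 lower, where 11.5% and 10.5% of all probes were, the RNA-destabilizing Zfp36 at -2.01 ± 0.81 and Errfi1 at -1.48 ± 0.39. Zfp36 was well above background on only 1 of the 3 DHI arrays, so the size of its fall is uncertain. With normexp the Zfp36 value was -0.31 and not called.

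Over these 3 lists together, 27 of 57 genes were called lower (22.3% of all probes) and 4 higher (20.8%) in I/R versus Sham, 14 higher (11.5%) and 5 lower (10.5%) in DHI versus I/R, and 0 higher (2.52% of all probes) and 8 lower in DHI versus Sham. The 19 calls in DHI versus I/R became 2 without DHI 2, 4 without I/R 1 or DHI 3, 5 without I/R 2, and 0 with the adjusted p. Over all probes the 5211 calls became 939 without DHI 2, 1381 without I/R 1, 1127 without DHI 3 and 1659 without I/R 2. The 8 called lower in DHI versus Sham, named after their values were seen, were Nr4a2, Klf2, Klf4, Ier2, Btg2, Dusp1, Gadd45g and Cyr61, with log2 differences from -2.73 (Cyr61) to -1.11 (Gadd45g), where 1.06% of all probes were called lower and 0% with the adjusted p.

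Upstream of the immediate early genes, 12 of 23 signaling and transcription factor genes were called lower (22.3% of all probes) and 1 higher (20.8%) in I/R versus Sham (median -0.69). The calcium-dependent kinases Camk4, Camk2a and Camk2b fell, at -3.78 ± 0.74, -2.84 ± 0.76 and -2.72 ± 0.77, and the NMDA receptor subunit Grin2a at -3.56 ± 0.96 (SE). Against I/R, 7 were called higher (11.5% of all probes) and 1 lower (10.5%, median 0.40), with Camk4 at 3.04 ± 0.74, Grin2a at 2.56 ± 0.96 and Camk2a at 2.31 ± 0.76. In DHI versus Sham 1 of the 23 was called lower, where 1.06% of all probes were, and 0% of all probes passed with the adjusted p. Of 9 dimerization partners and corepressors, 2 were called lower in I/R versus Sham, the Npas4 partner Arnt2 (-1.17 ± 0.36) and the Egr corepressor Nab2 (-0.87 ± 0.23), and 2 higher, Batf3 (3.69 ± 0.76) and Rxra (1.08 ± 0.32, 0.55 and not called with normexp). These shares of the 9 are near those of all probes, 22.3% lower and 20.8% higher. Between DHI and I/R, Batf3 was at -2.14 ± 0.76 and Nab2 at 0.62 ± 0.23. Of these 9 genes 0 were called in DHI versus Sham, where 2.52% of all probes were called higher and 1.06% lower. Of the genes named from these lists in DHI versus I/R, Fosl1, Errfi1 and Camk4 kept their call when each array was left out in turn, and the others lost it without at least 1 array, such as Bdnf without I/R 2 (1.91) or DHI 2 (2.28).

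Cell type markers moved beside these genes. In I/R versus Sham the neuronal genes Rbfox3 and Slc17a7 fell, at -2.85 ± 0.73 and -2.66 ± 0.82 on the log2 scale (SE), the synaptic vesicle fusion gene Snap25 went from a mean log2 signal of 4.93 in Sham to 1.92 in I/R, and Aif1 of microglia and macrophages rose by 3.40 ± 0.75. In DHI versus I/R, 9 of 14 neuron markers were called higher (median 1.55, 11.5% of all probes) and 7 of 9 microglia and macrophage markers lower (median -2.48, 10.5% of all probes). The summed scaled intensity of the microglia and macrophage markers was at most 13.1 in Sham, 66.1 to 188 in I/R and 14.7 to 103 in DHI. By array, their mean log2 difference from the Sham mean was 3.30 in DHI 1, -0.01 in DHI 2 and 0.59 in DHI 3, the reverse of the array order of the neuron markers. The part of these cell type markers in the values of the 9 genes was not tested.

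**Figure D5:**
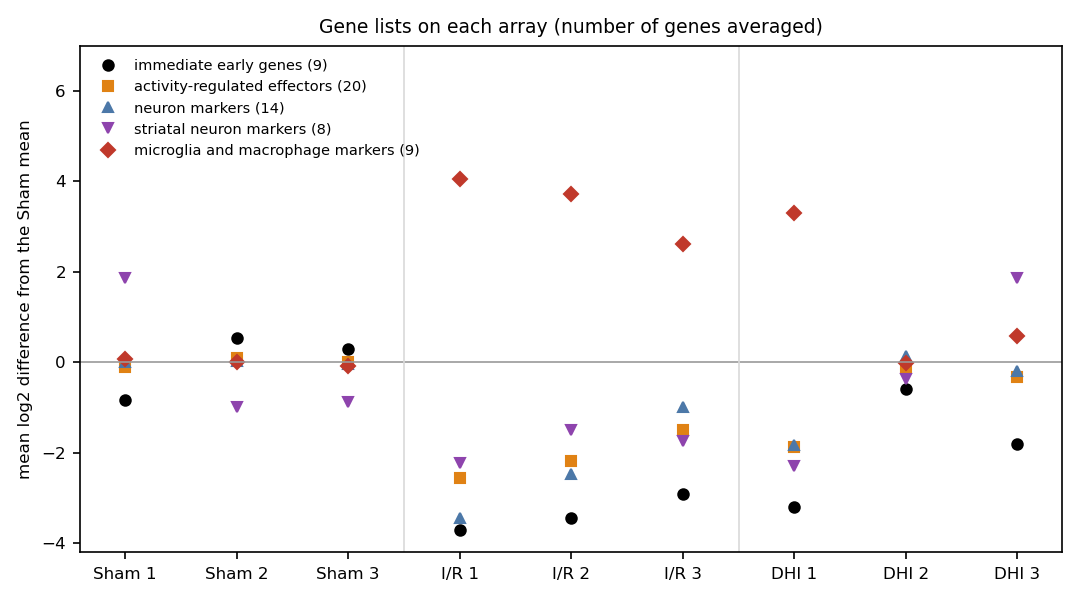
Mean log2 difference from the Sham mean (y axis) of 5 gene lists on each of the 9 arrays (x axis). In DHI 3 the neuron markers are at -0.20 and the effector genes at -0.32, while the 9 immediate early genes are at -1.81.

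Of the remaining marker lists, cortical excitatory neuron markers were called lower in 8 of 8 in I/R versus Sham and higher in 6 of 8 in DHI versus I/R, striatal neuron markers lower in 3 of 8 and higher in 1 of 8. Of all probes, 22.3% were called lower and 20.8% higher in I/R versus Sham. In DHI versus I/R 11.5% were called higher, and the striatal 1 of 8 is near that share. Astrocyte markers were called higher in 4 of 7 and lower in 1 of 7 in I/R versus Sham, endothelial and mural markers higher in 3 of 7, red blood cell markers lower in 3 of 3, choroid plexus markers higher in 2 of 4, and oligodendrocyte markers in 0 of 6. In DHI versus I/R all 3 red blood cell markers were called higher, Hbb at 2.87, Hba-a2 at 2.67 and Alas2 at 2.06 on the log2 scale. For each, every DHI array lay above every I/R array, as for 5.52% of all probes. By array, their mean log2 difference from the Sham mean was -0.75, 1.59 and 0.84 in DHI 1, 2 and 3 and -2.23, -1.96 and -1.74 in I/R 1, 2 and 3, and their part in the DHI versus I/R values of the immediate early genes was not tested. The choroid plexus markers of I/R array 3 and DHI array 1 were 4.72 and 5.90 above the Sham mean on the log2 scale.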

How the data were processed

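Brain RNA labeled with Cy3 was hybridized to single-color Agilent arrays. The authors deposited 1 Agilent Feature Extraction 10.7.1.1 output per array, whose processed signal is a linear intensity per spot with background subtracted and no scaling across arrays. A table with 1 log2 value per probe and array, also deposited by the authors, tracked quantile-normalized log2 intensities (Pearson's r = 0.99953) and served as an alternative. Probe coordinates are in rn4 as deposited, without exon annotation.

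Control spots and 392 to 725 outlier spots per array were dropped, and spots of a probe were averaged. The array's 75th percentile (intensity 1816.3 to 3464.4) was subtracted on the log2 scale. A probe stood well above background on an array when at least 50% of its spots did, and it was tested when this held for every array of some group (23747 of 30367 probes). Precision is limited by having only 3 arrays in a group. Groups came from the sample labels. A group-means model over all 9 arrays (limma 3.58.1, lmFit and eBayes, with 6 residual degrees of freedom, in R 4.3.3 with data.table version 1.17.8) gave the comparisons, and the steps were tested on simulated data. The bound for a probe not well above background in a group used, per array, the higher of its own signal and the lowest signal well above background. The number of value columns left unused was 0.

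The members, gene lists and tests were chosen with earlier results of these data known, so counts and medians of lists are descriptions. Named genes are the members, up to 4 genes per list with the largest called change in I/R versus Sham, up to 3 likewise between DHI and I/R, the markers Rbfox3, Snap25, Slc17a7, Ppp1r1b and Aif1, and the 3 genes most like Npas4 and Arc by Pearson's r. The striatal marker Ppp1r1b had a log2 fold change of -1.77 in I/R versus Sham and 1.75 between DHI and I/R, calls lost without Sham 1 (-1.10) and without DHI 3 (1.04) among other alternatives. Alternatives were quantile normalization, no scaling, normexp (offset 50), the deposited log2 table, no filter or a stricter filter on dim probes, a model of the 2 groups compared alone, weights per array, a replicate block, the methods' t-test, the adjusted p, the median over a gene's probes, and each array left out.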

Additional observations from a re-analysis of the deposited data

How the results depend on the processing

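The counts called in I/R versus Sham, 8 immediate early genes and 31 other activity-regulated genes, stayed within 1.5 times under every alternative, while the Npas4 value moved to -2.38 with normexp. Without scaling, the median of all probes in DHI versus I/R moved from 0.10 to -0.36 on the log2 scale, and changes there are read against that shift. In DHI versus I/R, the 4 genes called became 0 with the methods' t-test and 0 with the adjusted p, and ranged from 1 to 7 when an array was left out. Calls over all probes went from 5211 to 469 and 1, and ranged from 939 to 10737 when an array was left out. The Arc call was also lost without scaling (2.48) and with only the 2 groups in the model. The 19 other activity-regulated genes became 34 with array weights, 11 with only the 2 groups in the model, 1 with the t-test and 0 with the adjusted p, and ranged from 2 to 26 with an array left out. All probes had 11904 calls with array weights and 2149 with only the 2 groups in the model.

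In DHI versus Sham, the 5 genes called became 8 with array weights, 1 with the t-test (Fos) and 0 with the adjusted p, and ranged from 2 to 8 with an array left out. Calls over all probes went from 849 to 3484, 448 and 0 in turn, and ranged from 344 to 2519 with an array left out. The 8 other activity-regulated genes became 14 without scaling, 21 with array weights, 5 with the t-test and 0 with the adjusted p. All probes had 1688 calls without scaling. Signs turned for Egr3 in DHI versus Sham with normexp (0.18) and array weights (0.08), and with an array left out its value ranged from -0.77 to 0.38, above 0 without DHI 1. The Fos value in DHI versus I/R ranged from -0.75 to 0.18 with an array left out, above 0 without DHI 3. The cause was not tested. Of the values of single genes, 1264 kept their direction and call, 195 lost and 21 gained the call.

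The replicate numbers are shared between groups, but deviations of same-numbered arrays did not go together in every pair (r from -0.34 to 0.48 over the comparisons), so they are read as numbers only. With the replicate number as a block, 8 of the 9 genes were called in DHI versus Sham in place of 5. Calls over all probes went from 849 to 1280 with it. Dim probes limit Npas4 and Egr3, whose I/R levels lie at or near background. Outside the 9 genes they also limit Zfp36 in DHI and Bdnf in I/R.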
